A study of Mus musculus with 10 samples.

Results

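The 8 CXC chemokine genes Cxcl1, Cxcl2, Cxcl3, Cxcl5, Cxcl9, Cxcl10, Cxcl11 and Cxcl16 were taken by name from a table of 55573 mouse genes, and all 8 were found in it. They fall into 4 ligands that attract neutrophils (Cxcl1, Cxcl2, Cxcl3 and Cxcl5), 3 ligands induced by IFN (Cxcl9, Cxcl10 and Cxcl11) and Cxcl16, which is made as a transmembrane protein. RNA-Seq was done on bone marrow–derived macrophages (BMDMs), grown with MCSF from the marrow of WT female C57BL/6 mice and treated for 4 hours. Groups were given vehicle, polyU (5 μg), PNPi+dG/rG, both of these (PNPi+dG/rG+polyU, called the combination here) or R848 at 1 ng/mL, and each of the 5 has 2 libraries that the labels call biological replicates. PolyU is an ssRNA of uridines, given here in a complex with the lipid DOTAP. PNPi is ulodesine, used at 1 μM, which blocks purine nucleoside phosphorylase (PNP), the enzyme that breaks down guanosine (rG) and deoxyguanosine (dG), and each nucleoside was added at 5 μM. R848 is a small synthetic agonist of TLR7, an endosomal receptor that senses guanosine and uridine-rich ssRNA together. R848 serves as the reference TLR7 ligand, against which the other treatments can be set. All groups share the genotype and strain. The labels name DOTAP only for polyU, so polyU and its carrier cannot be told apart, nor can PNPi and the nucleosides given with it.

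CXC chemokines guide leukocytes to sites of infection or injury. Cxcl1, Cxcl2, Cxcl3 and Cxcl5 bind CXCR2, the receptor by which neutrophils leave the blood, and macrophages switch on their genes through NF-κB within hours of sensing a microbe. Cxcl9, Cxcl10 and Cxcl11 bind CXCR3 on activated T cells and NK cells. Their genes respond to IFN, Cxcl10 to type I IFN as well as IFN-γ, and Cxcl9 above all to IFN-γ. Cxcl16 binds CXCR6 and is shed from the cell surface by the proteases ADAM10 and ADAM17.

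All but Cxcl16 lie on chromosome 5 (build GRCm38, positions from GENCODE). Cxcl5 (90759360 to 90761624), Cxcl3 (90786103 to 90789600), Cxcl1 (90891241 to 90893115) and Cxcl2 (90903871 to 90905938) are on the plus strand within 146.6 kb. Cxcl9 (92321347 to 92328079), Cxcl10 (92346638 to 92348889) and Cxcl11 (92359544 to 92365485) are on the minus strand within 44.1 kb, and 1.42 Mb separate these clusters. Cxcl11 is annotated as a polymorphic pseudogene in this strain's genome, so its reads stand for RNA and not for a protein. Cxcl16 is on the minus strand of chromosome 11 (70453983 to 70459984).

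The DNA before the start site of Cxcl1, Cxcl2 and Cxcl3 is shown because these 3 genes share an 11-base run there that contains a κB consensus, the binding motif of NF-κB. The 3 windows below each cover 100 bases, ending 31 bases before the RefSeq start site (RefSeq, GRCm38.p6, plus strand), with the shared run in capitals.
Cxcl1, chr5:90891115-90891214: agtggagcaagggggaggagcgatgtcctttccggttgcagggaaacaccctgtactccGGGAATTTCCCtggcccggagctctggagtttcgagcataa
Cxcl2, chr5:90903769-90903868: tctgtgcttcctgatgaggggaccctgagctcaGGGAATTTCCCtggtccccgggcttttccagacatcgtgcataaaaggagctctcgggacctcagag
Cxcl3, chr5:90785971-90786070: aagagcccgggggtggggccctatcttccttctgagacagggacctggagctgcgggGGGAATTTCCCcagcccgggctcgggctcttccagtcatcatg

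The run GGGAATTTCCC starts 71 bases before the RefSeq start site of Cxcl1, 97 before that of Cxcl2 and 73 before that of Cxcl3. For Cxcl2 the DNA before the RefSeq start ends at 90903898, past the GENCODE start of 90903871, so its larger distance depends on the annotation. The run was picked as the longest stretch that these 3 promoters share within 250 bases before the start. It was found there in 14 of the 32536 mouse promoters searched, a share of 0.043%. That count includes these 3 by the way the run was picked, so the share is a description and not a test.

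The 250 bases before the start sites of Cxcl9 and Cxcl10 (minus strand, written 5′ to 3′ toward the gene) are shown for the contrast between them. Capitals mark matches to the ISRE core GAAANNGAA, an element bound by IFN-activated factors, and in Cxcl10 also to the κB consensus.
Cxcl9, chr5:92328080-92328329: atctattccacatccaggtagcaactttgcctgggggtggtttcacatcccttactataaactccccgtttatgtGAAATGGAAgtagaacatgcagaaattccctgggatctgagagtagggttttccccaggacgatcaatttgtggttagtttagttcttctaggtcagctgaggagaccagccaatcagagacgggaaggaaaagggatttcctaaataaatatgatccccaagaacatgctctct
Cxcl10, chr5:92348890-92349139: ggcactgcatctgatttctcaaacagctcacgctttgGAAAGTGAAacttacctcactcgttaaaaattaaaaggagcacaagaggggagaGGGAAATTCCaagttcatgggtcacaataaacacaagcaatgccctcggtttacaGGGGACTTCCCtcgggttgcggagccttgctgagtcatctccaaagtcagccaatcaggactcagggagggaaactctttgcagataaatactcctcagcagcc

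Cxcl10 held both kinds of motif, with an ISRE core match 213 bases and κB matches 159 and 104 bases before the start. Cxcl9 held an ISRE core match 175 bases before the start. No exact match to the κB consensus used here, GGGRNNYYCC, lay within 250 bases, and sites that depart from it were not searched for. On either strand, 7.28% of all mouse promoters held the κB consensus, 7.15% the ISRE core and 0.363% both. The TATA motif TATAAA, found in 12.3% of promoters, was present 30 bases before the start of Cxcl3 and 195 bases before that of Cxcl9. Matches are descriptions of the letters in these windows, and binding was not measured.

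**Figure D1:**
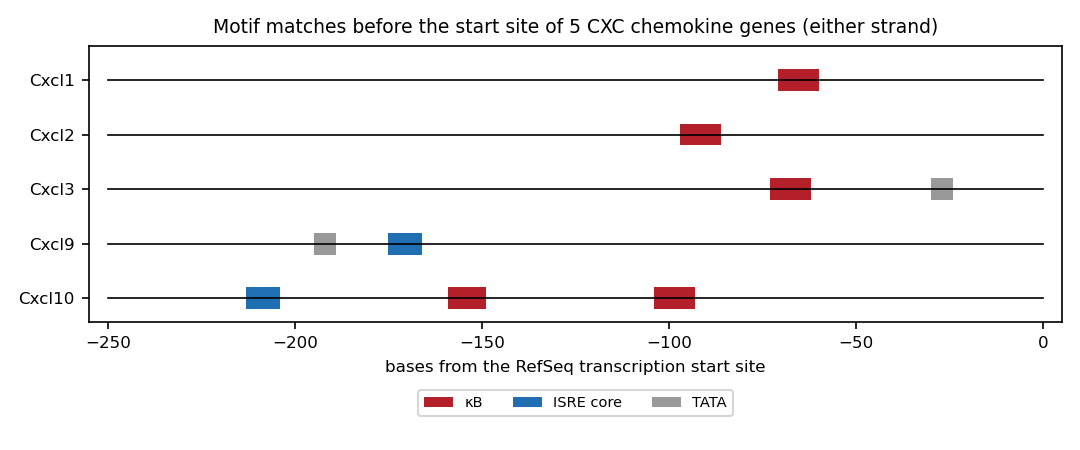
Motif matches within 250 bases before the RefSeq start sites of the 5 CXC chemokine genes with a promoter sequence, drawn to scale by distance from the start (x axis, bases); overlapping matches on either strand are merged. Cxcl1, Cxcl2 and Cxcl3 have κB matches (red) between 97 and 61 bases before the start, Cxcl9 an ISRE core match (blue), and Cxcl10 both.

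Values are CPM, reads on a gene scaled to a common library size, as deposited by the authors. Depth ran from 14128123 to 38392607 reads per library, so that 3 reads, taken as the least a library can show, correspond to 0.0781 to 0.212 CPM (counting error only). Differences were tested with limma on log2 CPM in 1 model of all 10 libraries, over the 11978 genes that reached 1 CPM in 2 or more libraries. A gene was called at a Benjamini-Hochberg adjusted p under 0.05 and a change of at least 2-fold. All 8 chemokines passed the filter, but Cxcl1 did so through the treated groups and not through vehicle. Cxcl5 passed only through R848, Cxcl9 through the combination and R848, and Cxcl11 through polyU and the combination. Nothing in the labels ties the replicates to separate cultures or mice, so p-values measure the spread between libraries, which may be technical. The median gene shifted by -0.22 on the log2 scale with the combination and by -0.50 with R848 against vehicle, and chemokine changes should be read relative to that. Summed over 10 macrophage markers, libraries held 16510 to 19340 CPM, of which Lyz2 alone made up 7756 to 11490 CPM. Single markers moved under this sum. Against vehicle, R848 called 1 of the 10 higher (8.89% of all genes) and 2 lower (30.3%). Of the other cell types, the 10 fibroblast genes summed to 188.2 and 199.4 CPM with R848. In the other 8 libraries they summed to between 1.63 and 6.19 CPM. Col1a1, a collagen chain, was at 51.6 and 58.3 CPM with R848 against at most 0.393. Of the 8 fibroblast genes that passed the filter, 7 were called higher with R848 than with vehicle (8.89% of all genes). Lum and Thy1 stayed at or below 0.0612 CPM with R848. The 10 neutrophil genes summed to 63.9 and 65.4 CPM with R848 and to 16.0 to 23.1 CPM elsewhere, and the defining gene Ly6g had 0 reads in every library. That list went both ways with R848, since Mmp8 (40.9 and 40.2 CPM) and S100a8 (up to 23.4 CPM) made up most of the sum and were called higher with Camp, while S100a9 (0.0531 and 0 CPM) and Ngp (0 in both) were called lower against vehicle. The 8 T and NK cell genes were at or below 9.66 CPM with Cd3e at 0 throughout, the 5 B cell genes at or below 0.651 CPM, the 8 dendritic cell genes, led by Bst2, at 249.5 to 422.4 CPM, and the 7 endothelial genes at 64.5 and 69.8 CPM with R848 against 143.0 to 245.9 CPM. The part of these differences in the chemokine values for R848 was not tested.

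The neutrophil-attracting and the IFN-induced chemokines ranked the treatments differently. Cxcl1, Cxcl2, Cxcl3 and Cxcl5 were highest with R848 and next highest with the combination. Cxcl9, Cxcl10, Cxcl11 and Cxcl16 had their highest CPM with the combination. For Cxcl16 the lead over R848 was 0.11 on the log2 scale, under 2-fold. It turned to -0.27 once libraries were centred on their median gene. Cxcl10 and Cxcl11 were higher with polyU than with R848, for Cxcl10 without a call after that centring.

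**Figure D2:**
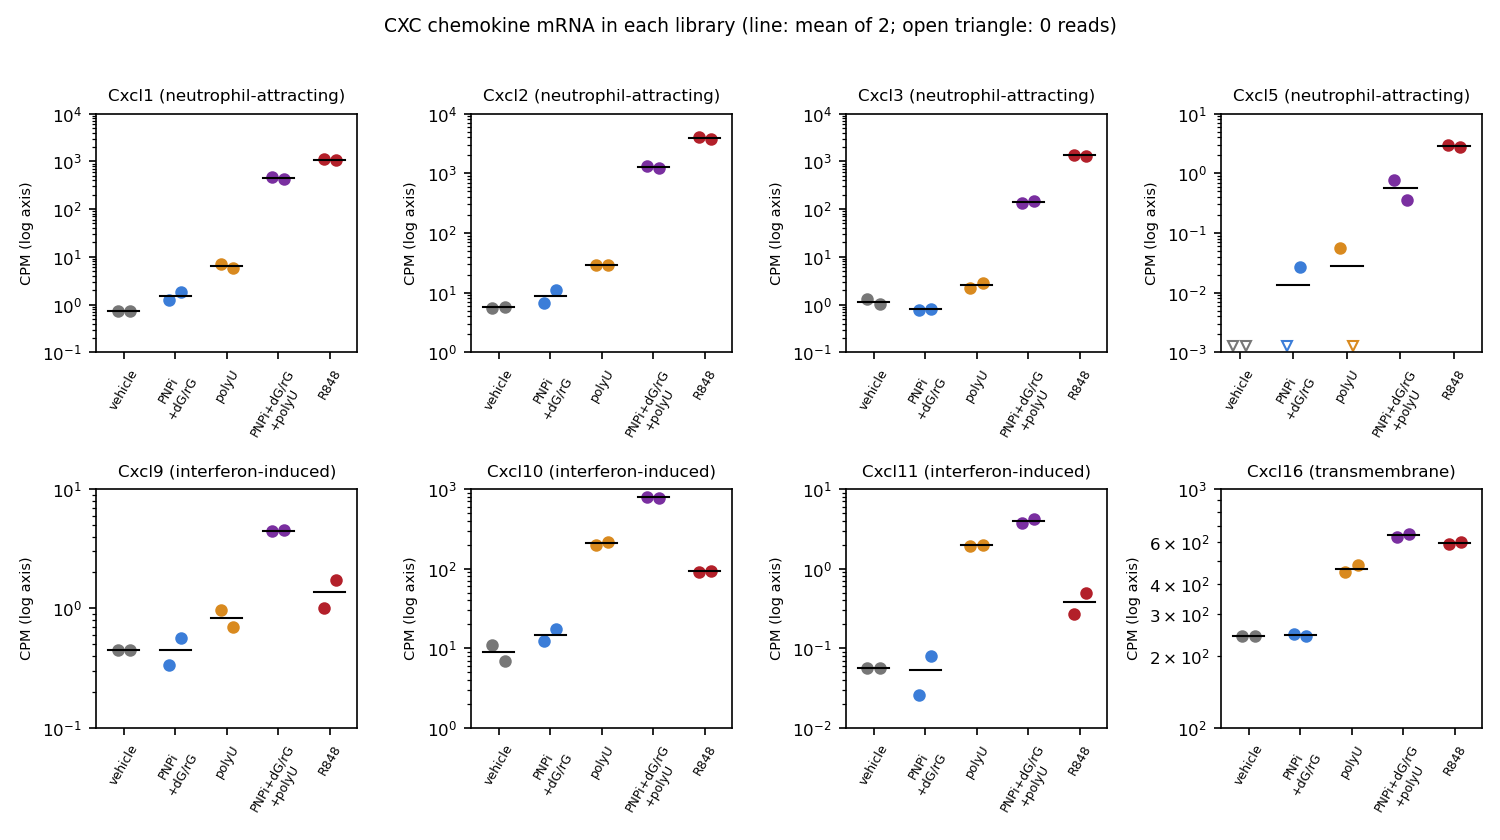
CPM (y axes, log scale, a range of its own for each gene) of the 8 CXC chemokine genes in every library, by treatment group (x axis), with the mean of 2 libraries as a line and libraries with 0 reads as open triangles at the foot of the axis. The upper row, from Cxcl1 to Cxcl5, peaks with R848, and every gene of the lower row peaks with PNPi+dG/rG+polyU, Cxcl16 by a small margin over R848.

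Cxcl1 encodes a major neutrophil attractant, known as KC in the mouse. It was measured at 0.730 and 0.730 CPM with vehicle, 1.25 and 1.85 CPM with PNPi+dG/rG, and 7.22 and 5.81 CPM with polyU. The combination brought it to 480.5 and 433.8 CPM, and R848 to 1118 and 1063 CPM. The 5 groups did not overlap, and the step from polyU to the combination, 70.2-fold between means, was the largest in this order. Against vehicle, the log2 fold change was 3.15 ± 0.16 (SE, adjusted p = 2.95e-08) with polyU, 9.29 ± 0.16 (1.46e-13) with the combination and 10.54 ± 0.16 (1.97e-14) with R848.

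Cxcl2, known as MIP-2 and the most abundant of the 8 per transcript length with the combination and with R848, followed the same order. Its values were 5.61 and 5.79 CPM with vehicle, 6.75 and 11.0 CPM with PNPi+dG/rG, and 29.1 and 29.2 CPM with polyU. They reached 1325 and 1233 CPM with the combination and 4002 and 3690 CPM with R848. No pair of groups overlapped. PolyU gave a log2 fold change of 2.36 ± 0.22 against vehicle (adjusted p = 0.000469), the combination 7.81 ± 0.22 (4.95e-07) and R848 9.40 ± 0.22 (1.16e-07).

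Cxcl3, a close relative of Cxcl2, had a smaller fold change with polyU than Cxcl1 and Cxcl2. It stood at 1.29 and 1.01 CPM with vehicle, 0.781 and 0.802 CPM with PNPi+dG/rG, and 2.27 and 2.79 CPM with polyU. With the combination it was at 136.5 and 148.8 CPM, and with R848 at 1358 and 1298 CPM. The groups did not overlap, and the ratio of means between R848 and the combination was 9.31 for Cxcl3, against 2.38 for Cxcl1 and 3.01 for Cxcl2. The change with polyU was a log2 fold change of 1.14 ± 0.13 (adjusted p = 4.86e-06). It fell under 2-fold without vehicle replicate 2 (0.96) or polyU replicate 2 (0.99), and with a pseudocount of 1 CPM (0.71). With the combination and R848 the log2 fold changes were 6.96 ± 0.13 (4.52e-16) and 10.18 ± 0.13 (3.35e-18).

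Cxcl5, which attracts neutrophils mainly from epithelial and platelet sources, was near the limit of detection. It had 0 reads in both vehicle libraries, while polyU gave 1 and 0 reads and PNPi+dG/rG 0 and 1. The combination gave 11 and 5 reads (0.779 and 0.352 CPM), and R848 57 and 91 reads (3.03 and 2.79 CPM). The vehicle, polyU and PNPi+dG/rG libraries overlapped, and the other groups stood above them. Taking 3 reads per library as the floor for vehicle, the level was at least 3.36-fold higher with the combination and at least 17.3-fold higher with R848. Adjusted p-values were 0.0101 and 0.00229, and the first rose to 0.0760 without replicate 1 of the combination. In the fit of R848 and vehicle alone the second was 0.137.

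PNPi+dG/rG without polyU moved 1 of the 8 genes past the threshold. This was Cxcl1, which passed the filter only through treated groups, PNPi+dG/rG among them. It was called at a log2 fold change of 1.06 ± 0.16 (adjusted p = 0.0122), where 0.0668% of the 11978 genes were called higher. That call was lost without vehicle replicate 1 (adjusted p = 0.175), without vehicle replicate 2 (0.186) and without PNPi+dG/rG replicate 2 (log2 fold change 0.78). The differences of Cxcl2 (0.60 ± 0.22, adjusted p = 0.506), Cxcl3 (-0.53 ± 0.13, 0.0871) and Cxcl10 (0.74 ± 0.26, 0.485) did not pass the test. Cxcl9, Cxcl11 and Cxcl16 overlapped with vehicle, with adjusted p-values from 0.959 to 0.997.

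Among the IFN-induced ligands, Cxcl10, known as IP-10, was the most abundant per transcript length. Vehicle libraries held 11.0 and 6.91 CPM, PNPi+dG/rG 12.2 and 17.4 CPM, and R848 91.4 and 93.1 CPM. PolyU alone raised it to 198.8 and 219.1 CPM and the combination to 805.5 and 778.1 CPM. The groups did not overlap, and polyU stood above R848, the reverse of the order seen for Cxcl1, Cxcl2 and Cxcl3. That last difference was -1.18 for R848 minus polyU on the log2 scale, and -0.54 and not called (adjusted p = 0.116) after each library was centred on its median gene. Against vehicle, polyU gave a log2 fold change of 4.58 ± 0.26 (adjusted p = 6.53e-05), the combination 6.50 ± 0.26 (3.56e-06) and R848 3.40 ± 0.26 (5.32e-05).

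Cxcl11 kept the order of Cxcl10 at a far lower level. It had 1 read in each vehicle library (0.0561 and 0.0562 CPM), 1 and 3 reads with PNPi+dG/rG, and 5 and 16 reads with R848 (0.266 and 0.490 CPM). PolyU gave 34 reads in each library (1.93 and 1.98 CPM), and the combination 53 and 60 (3.75 and 4.22 CPM). Vehicle and PNPi+dG/rG overlapped, and no other neighbours in the order did. The ratio of reads per depth against vehicle was 34.8 with polyU (95% CI 9.27 to 293, exact interval for counting error), 71.0 with the combination (19.2 to 593) and 7.26 with R848 (1.78 to 63.9). limma called all 3, with adjusted p-values of 2.43e-05, 8.58e-07 and 0.00195, but the last was 0.135 in the fit of R848 and vehicle alone.

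Cxcl9, known as MIG, stayed low in every group. It was at 0.449 and 0.450 CPM with vehicle (8 reads each), 0.339 and 0.562 CPM with PNPi+dG/rG, and 0.966 and 0.697 CPM with polyU. R848 gave 1.01 and 1.72 CPM, and the combination 4.46 and 4.50 CPM from 63 and 64 reads. Unlike Cxcl10 and Cxcl11, its mean was lower with polyU than with R848, but that difference did not pass the test (R848 minus polyU 0.68 ± 0.40 on the log2 scale, adjusted p = 0.124). Without R848 replicate 1 it did, at 1.06 (0.0436). Against vehicle it rose with the combination (3.32 ± 0.40, 2.09e-06) and R848 (1.55 ± 0.40, 0.00211), and with polyU the difference was 0.87 ± 0.40 (0.0990). Ifng, the gene of IFN-γ, had 1 read in R848 replicate 2 and 0 reads in the other 9 libraries.

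Cxcl16 was far above the other members in unstimulated cells, and its fold range between groups was the smallest of the 8. It stood at 243.0 and 242.7 CPM with vehicle, 246.2 and 241.3 CPM with PNPi+dG/rG, and 448.9 and 478.6 CPM with polyU. R848 raised it to 586.2 and 599.2 CPM, and the combination to 629.8 and 649.0 CPM. All groups other than vehicle and PNPi+dG/rG were apart. Log2 fold changes against vehicle were 0.93 ± 0.04 with polyU (adjusted p = 1.62e-10, under 2-fold and so not called), 1.40 ± 0.04 with the combination (7.70e-14) and 1.29 ± 0.04 with R848 (9.25e-14). Cxcl16 shares 552 bp of exon with Zmynd15 on the opposite strand. Zmynd15 moved in the same order, from 13.6 and 16.3 CPM with vehicle and 34.0 and 39.2 with polyU to 51.0 and 50.7 with R848 and 79.6 and 76.8 with the combination. The library kit keeps the strand, but the strand setting of the counting is not given in the sources used here, so reads from the shared stretch may be split. Cxcl10 shares 133 bp with Art3, which stayed at or below 0.212 CPM, and Cxcl11 shares 1582 bp with the pseudogene Gm2673, which had 0 reads.

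Counted over the 8 genes, polyU against vehicle called 5 higher (Cxcl1, Cxcl2, Cxcl3, Cxcl10 and Cxcl11), where 3.21% of all genes tested were called higher. The combination and R848 each called all 8 higher, against 8.12% and 8.89% of all genes. Here and in the counts below, Cxcl1, Cxcl5, Cxcl9 and Cxcl11 passed the filter only through treated groups where they were higher than with vehicle. Their part in the counts therefore carries that choice. Cxcl5 had 0 reads with vehicle, and neither of its calls against vehicle held in every fit. The median log2 fold change of the 4 neutrophil-attracting members was 2.75 with polyU, 8.55 with the combination and 10.36 with R848. With Cxcl5 set at its bound the last 2 became 7.39 and 9.79. The polyU median counts Cxcl5 at 4.58, from 1 read against 0, and the floor of 3 reads gives it no rise over vehicle. Cxcl1, Cxcl2 and Cxcl3 were at 3.15, 2.36 and 1.14 with polyU. For the 3 IFN-induced members the medians were 4.58, 6.14 and 2.68, and over all genes tested they were 0.02, -0.22 and -0.50. These comparisons share the vehicle libraries.

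Dividing CPM by transcript length makes the genes comparable with each other within a library. With vehicle, Cxcl16 led at 90.0 ± 0.0812 CPM per kb (SD, n = 2), and Cxcl10 followed at 6.62 ± 2.14. With polyU, Cxcl16 at 171.8 ± 7.78 and Cxcl10 at 154.4 ± 10.6 CPM per kb led, and Cxcl2 reached 15.7 ± 0.00822. The combination placed Cxcl2 at 687.9 ± 35.1, Cxcl10 at 585.2 ± 14.3 and Cxcl1 at 479.7 ± 34.6 CPM per kb. With R848 the 3 leading genes were all neutrophil attractants, Cxcl2 at 2069 ± 119, Cxcl3 at 1307 ± 42.0 and Cxcl1 at 1144 ± 40.8 CPM per kb, and Cxcl10 was at 68.2 ± 0.856.

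Summed over each class, neutrophil-attracting mRNA per kb was 0.609 and 0.924 times the IFN-induced mRNA in the vehicle libraries and 0.624 and 0.662 times with PNPi+dG/rG. The ratio was 0.173 and 0.151 with polyU, 2.26 and 2.19 with the combination, and 68.6 and 63.0 with R848. The ratio uses values of the same library, so library scaling does not enter it. PolyU lay below, and the combination and R848 above, every vehicle library. The sums rest mainly on Cxcl1, Cxcl2 and Cxcl3 on one side and Cxcl10 on the other.

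**Figure D3:**
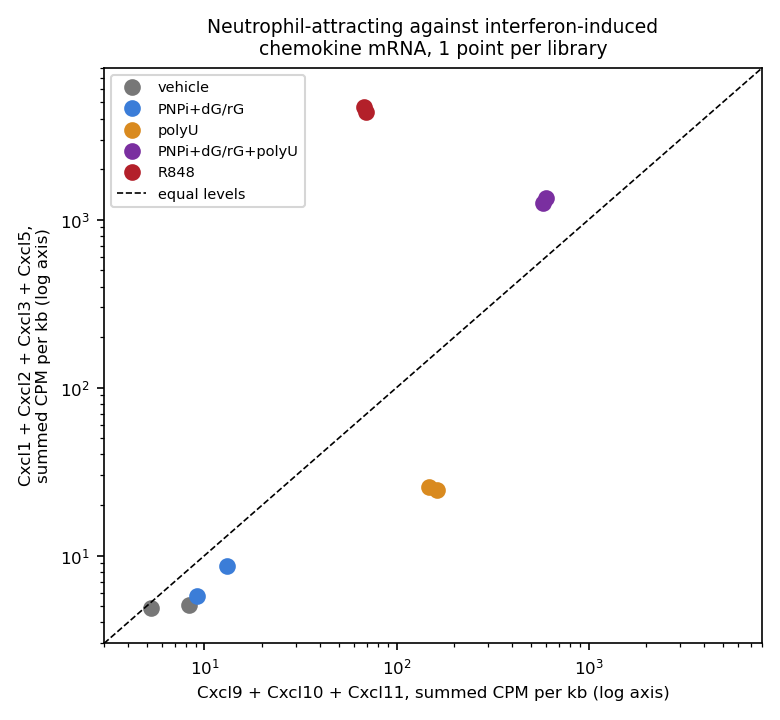
Summed level of Cxcl1, Cxcl2, Cxcl3 and Cxcl5 (y axis) against that of Cxcl9, Cxcl10 and Cxcl11 (x axis), both in CPM per kb of transcript on log axes, with 1 point per library and a dashed line where they are equal. R848 libraries lie at 4665 and 4380 on the y axis but 68.0 and 69.5 on the x axis, PNPi+dG/rG+polyU libraries are high on both, and polyU libraries lie below the line.

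The combination and R848 were compared directly, since both induced all 8 genes. The R848 libraries are those in which most of the fibroblast genes were higher and the neutrophil genes went both ways. The part of that in the values below was not tested. Lower with the combination were Cxcl1 (log2 fold change -1.26 ± 0.16, adjusted p = 2.06e-05), Cxcl2 (-1.59 ± 0.22, 0.00107) and Cxcl3 (-3.22 ± 0.13, 7.98e-12), 3 of 8 where 3.86% of all genes were called lower. Higher were Cxcl9 (1.77 ± 0.40, 0.000986), Cxcl10 (3.10 ± 0.26, 0.000122) and Cxcl11 (3.46 ± 0.68, 0.000317), 3 of 8 where 16.9% of all genes were called higher. The median of all genes was itself 0.31 higher with the combination. For Cxcl5 the reads gave a ratio of R848 to the combination of 5.09 (95% CI 3.03 to 9.14), while its log2 difference in the model of all libraries was -2.47 ± 3.85 (adjusted p = 0.580), whose error comes from libraries with 0 reads. It was called in the fit of these groups alone (adjusted p = 6.43e-05). Cxcl16 differed by 0.11 ± 0.04, and by -0.27 after each library was centred on its median gene.

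R848 was also compared with polyU alone. Cxcl1 (7.40 ± 0.16, adjusted p = 7.13e-13), Cxcl2 (7.04 ± 0.22, 4.81e-07), Cxcl3 (9.04 ± 0.13, 2.00e-17) and Cxcl5 were called higher with R848, 4 of 8 where 7.55% of all genes were. For Cxcl5, with 1 read in the polyU libraries, the ratio was 100 (95% CI 17.7 to 3980), and its adjusted p of 0.0225 rose to 0.173 without polyU replicate 2, 0.0820 without R848 replicate 1 and 0.0737 without R848 replicate 2. Cxcl10 (-1.18 ± 0.26, 0.00729) and Cxcl11 (-2.44 ± 0.68, 0.00386) were called lower, 2 of 8 where 31.6% of all genes were called lower and the median gene was at -0.56, so that this share was below that of all genes. After centring, Cxcl11 was still called lower, Cxcl10 was no longer called, and Cxcl9 was called 1.32 higher with R848 (adjusted p = 0.00691).

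**Figure D4:**
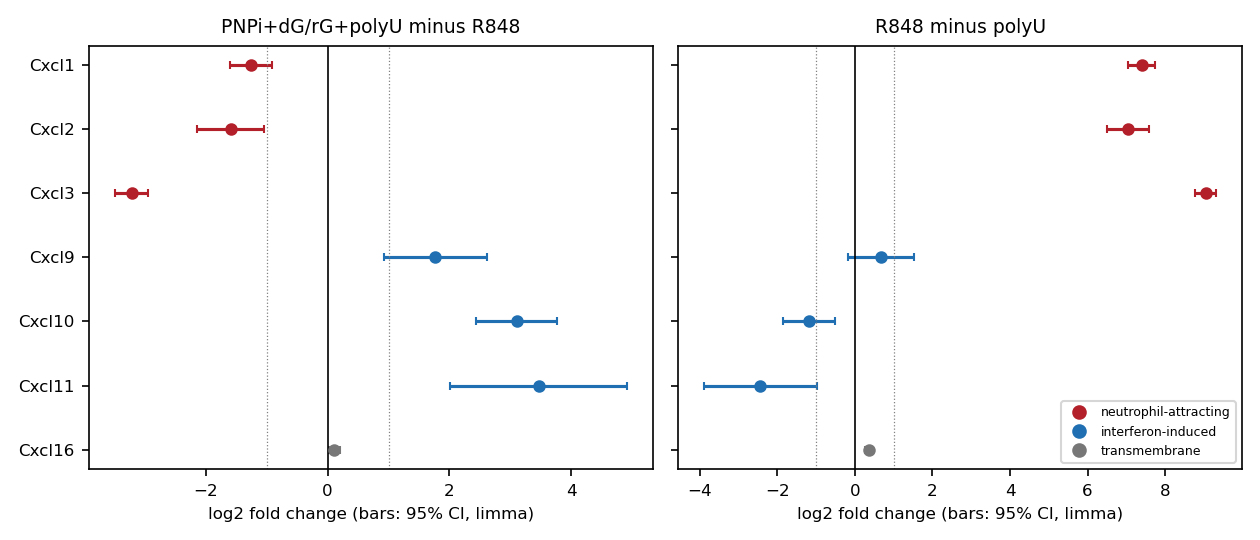
Log2 fold change (x axes) of 7 CXC chemokines for PNPi+dG/rG+polyU minus R848 (left) and R848 minus polyU (right), with 95% CI from limma as bars and dotted lines at 2-fold; Cxcl5 is left out because libraries with 0 reads set its error. The neutrophil attractants (red) and the IFN-induced ligands (blue) lie on opposite sides of 0 on the left, and Cxcl9 crosses 0 on the right.

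Adding PNPi+dG/rG to polyU raised 5 of the 8 genes past the threshold, where 5.29% of all genes were called higher. These were Cxcl1 (6.14 ± 0.16 on the log2 scale, adjusted p = 1.27e-11), Cxcl2 (5.45 ± 0.22, 4.08e-06), Cxcl3 (5.82 ± 0.13, 1.36e-14), Cxcl9 (2.45 ± 0.40, 6.95e-05) and Cxcl10 (1.92 ± 0.26, 0.00136). Cxcl16 differed by 0.46 ± 0.04 (1.05e-07), under 2-fold. Cxcl11 differed by 1.03 ± 0.68 (0.201), and its reads gave a ratio of 2.04 (95% CI 1.5 to 2.8). In the fit of the polyU and combination groups alone Cxcl11 was called (adjusted p = 0.00267).

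Whether PNPi+dG/rG acted differently with polyU than without it was tested by the interaction, the log2 change with polyU minus that without. It was positive and called for Cxcl1 (5.08 ± 0.22, adjusted p = 4.50e-09), Cxcl2 (4.86 ± 0.31, 6.68e-05), Cxcl3 (6.35 ± 0.18, 1.14e-12), Cxcl9 (2.49 ± 0.56, 0.00189) and Cxcl10 (1.18 ± 0.37, 0.0449), 5 of 8 where 4.55% of all genes were called positive. The call for Cxcl10 was the least stable of the 5. It was lost with no filter on low values (adjusted p = 0.0816) and in the fit of the 4 groups compared alone (0.0628). It was also lost in 6 of the 8 fits that left out a library of these groups, with values from 0.85 to 1.52 over all 8. Those 6 were the fits without vehicle replicate 1, polyU replicate 1 or 2, PNPi+dG/rG replicate 1, or replicate 1 or 2 of the combination. Cxcl16 had an interaction of 0.46 ± 0.06 (1.12e-05), and Cxcl11 one of 1.32 ± 0.96 (0.266).

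**Figure D5:**
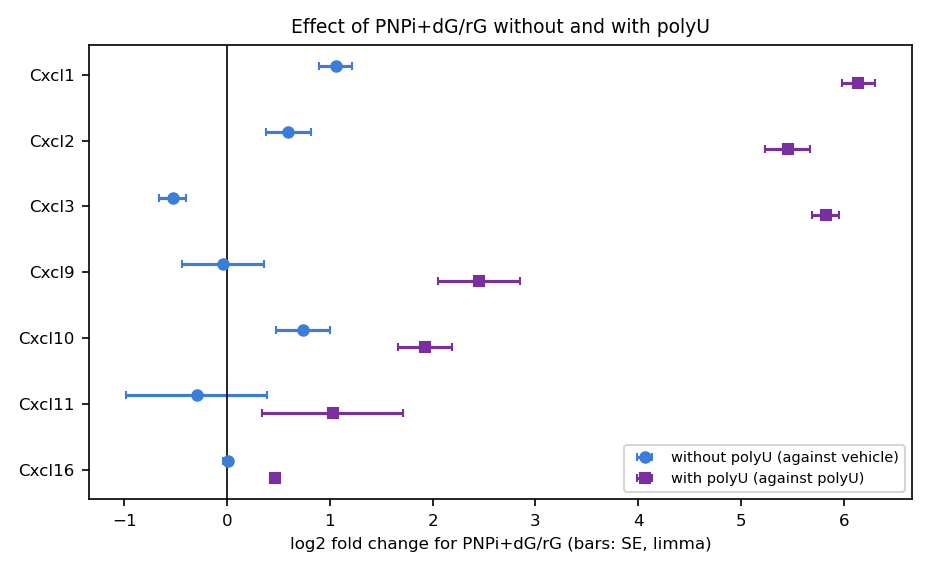
Log2 fold change (x axis) for PNPi+dG/rG in 7 CXC chemokines, against vehicle without polyU (circles) and against polyU with it (squares), with the SE from limma as bars; Cxcl5 is left out because of its libraries with 0 reads. Without polyU the values lie between -0.53 and 1.06, and with polyU Cxcl1, Cxcl2 and Cxcl3 lie between 5.45 and 6.14.

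Lists of genes upstream of the chemokines were counted in the same comparisons. Of 11 NF-κB subunits and inhibitors, 6 were called higher with polyU, 10 with the combination and 11 with R848, where 3.21%, 8.12% and 8.89% of all genes were. Between the last 2 groups 0 were called, where 16.9% of all genes were called higher and 3.86% lower with the combination. The median log2 fold changes of the 11 genes against vehicle were 1.17, 2.83 and 3.33. For the combination against R848 their median was -0.28, and that of all genes tested was 0.31. Nfkbiz, a co-factor of NF-κB at inflammatory genes, stood at 13.1 and 13.1 CPM with vehicle, 67.9 and 72.1 with polyU, 1514 and 1419 with the combination and 1051 and 1060 with R848. Unlike Cxcl1, Cxcl2 and Cxcl3, and unlike the median of its own list, Nfkbiz was not lower with the combination than with R848. Its difference was 0.47 ± 0.08 (adjusted p = 0.000125, under 2-fold), beside the 0.31 of the median gene. The means of Nfkbia (1624 against 1408 CPM) and Rel (239.8 against 226.4 CPM) were not lower either, and the rest of the list had lower means.

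Among genes of IFN signalling, Irf8 fell with the combination (-1.59 ± 0.05) and Irf5 with R848 (-2.05 ± 0.06). Irf1, which drives Cxcl9 and Cxcl10 downstream of IFN, had 21.5 and 22.2 CPM with vehicle, 102.3 and 115.2 with polyU, 261.4 and 242.1 with the combination and 63.0 and 69.4 with R848, the order of Cxcl10. Ifnb1, encoding IFN-β, was at 0.455 and 0.174 CPM with polyU, 1.35 and 1.05 with the combination, and at or below 0.0919 in the other libraries, and none of its differences passed the test. Its reads were 19 and 15 with the combination and 1 and 0 with vehicle, and its error (SE 3.92 for the difference from vehicle) was large, as for Cxcl5, with libraries at 0 reads. Of 14 IFN-stimulated reference genes, 13 rose with polyU (3.21% of all genes), 13 with the combination (8.12%) and 8 with R848 (8.89%), and 11 were higher with the combination than with R848 (16.9%). Against polyU, R848 called 9 of them lower (31.6% of all genes) and 2 higher (7.55%), and the 2 were Gbp2 and Gbp5, GTPases that IFN-γ also induces.

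Of 13 genes of the TLR7 pathway, 0 were called with polyU, where 3.21% of all genes were called higher. With the combination 3 rose (Myd88, Irak2 and Irak3), and with R848 5 did (these and Tab2 and Ikbkb). The shares of all genes called higher there were 8.12% and 8.89%. Irak3, an inhibitor of the pathway, was lower with the combination than with R848 (-1.15 ± 0.05, adjusted p = 3.80e-11). Of 8 genes that regulate the decay or stability of mRNAs, 2 were called higher and 2 lower with the combination, and 3 higher and 1 lower with R848. Over all genes tested, 8.12% were called higher and 14.3% lower with the combination, and 8.89% higher and 30.3% lower with R848. Zfp36 and Zc3h12a, which promote the decay of chemokine and cytokine mRNAs, rose with both. Zfp36l2 fell by 4.35 with the combination and by 3.82 with R848 on the log2 scale. Zfp36l1 fell with the combination (-2.36 ± 0.09) and was at -0.46 ± 0.09, under 2-fold, with R848, and the difference between them was called (-1.90 ± 0.09, 3.79e-11). Traf3ip2, an adaptor that stabilizes chemokine mRNAs, was called higher with R848.

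Receptors for these ligands were sparse. Of 8 CXC receptor genes, 2 passed the filter, and both fell with the combination (where 14.3% of all genes were called lower) and with R848 (30.3%). Cxcr4, which retains cells in the marrow, went from 87.8 and 88.3 CPM with vehicle to 54.5 and 52.9 with polyU, 6.37 and 6.97 with the combination and 8.44 and 8.05 with R848. Cxcr3, the receptor of Cxcl9, Cxcl10 and Cxcl11, went from 5.61 and 4.21 CPM to 0.779 and 0.422 with the combination (log2 fold change -3.08 ± 0.33, adjusted p = 5.78e-07) and 0.266 and 0.398 with R848 (-3.90 ± 0.33, 1.99e-08). Cxcr2, the receptor of the neutrophil attractants, was at or below 0.114 CPM in every library, and Cxcr6, that of Cxcl16, had 0 reads.

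Of the 7 other CXC ligands, Pf4, Cxcl12 and Cxcl14 passed the filter. Pf4, a platelet and macrophage chemokine in the cluster of Cxcl5, was at 27.0 and 31.5 CPM with vehicle, 40.4 and 41.8 with the combination and 100.9 and 107.9 with R848 (1.84 ± 0.08, adjusted p = 1.99e-12). Cxcl12, a stromal chemokine, was at or below 0.281 CPM outside R848. It was at 1.75 and 1.87 CPM with R848, the same libraries in which most of the fibroblast genes were high. Cxcl14 fell with the combination (-1.02 ± 0.15, 1.36e-05) and R848 (-1.51 ± 0.15, 9.86e-08). Of 16 genes that flank the clusters on chromosome 5, 7 passed the filter, 0 were called with polyU, 1 (Ppef2) higher with the combination, and 2 higher and 1 lower with R848. These shares can be set against 3.21% of all genes called higher with polyU and 8.12% with the combination. With R848, 8.89% of all genes were called higher and 30.3% lower. Ppef2 had 0 CPM in both vehicle libraries and 1.27 and 1.23 CPM with R848, Naaa rose by 1.11 ± 0.09 and Scarb2 fell by 1.23 on the log2 scale. Of the proteases that shed Cxcl16, Adam17 was at 1.00 ± 0.04 against vehicle with R848 and at 0.97 ± 0.04 with the combination, on either side of the 2-fold limit, and Adam10 differed from vehicle by -0.74 and -0.75 with the combination and R848, under 2-fold.

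Across the 8449 tested genes whose mean reached 10 CPM, the genes most like each member were found by the root mean square difference of the 4 log2 fold changes against vehicle, a description with no test. Closest to Cxcl1 were Adamts4 (0.62), a protease, Edn1 (0.68), encoding endothelin, and Socs3 (0.83), a feedback inhibitor of cytokine signalling. Closest to Cxcl2 were Nos2 (0.60), Adora2a (0.79) and Rasgrp1 (0.79), and to Cxcl3 Il1a (0.69), Ptgs2 (0.97) and Nos2 (0.98). The antiviral genes Mx2 and Mx1 were among the 3 closest to both Cxcl10 (0.86 and 1.01) and Cxcl11 (0.75 and 0.87). Mycl (0.87) for Cxcl10 and Ifit1 (1.14) for Cxcl11 completed these. Cxcl9 had Bambi-ps1 (0.23), the scavenger receptor gene Marco (0.32) and Batf2 (0.33). Cxcl16 was matched within 0.11 by Tifa (0.06), an adaptor in NF-κB signalling, Rilpl2 (0.10) and Samd9l (0.11). The nearest to Cxcl5 were Itgb8 (1.15), Csf3 (1.24) and Il17rd (1.91), a likeness that rests on libraries with 0 reads.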

How the data were processed

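RNA was sequenced as 1 × 50 bp reads (HiSeq 3000, KAPA stranded mRNA kit). Per the labels and methods, the authors used bcl2fastq 2.19.1.403, STAR 2.27a, GRCm38, Ensembl release 97 and Partek Flow, and deposited CPM plus an offset of 0.0001. The counting rule is not given in the sources used here. Symbols were found for 55394 of 55573 identifiers, positions come from GENCODE M21 (GRCm38), and lengths are those of the longest coding transcript. Depth was recovered from the steps of low values after the offset was removed, with 100% whole within a tolerance of 0.1. Count models were not run on normalized values.

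limma 3.58.1 (R 4.3.3, statmod 1.5.0; trend and robust eBayes) was fitted to log2 of the deposited values, with 2 libraries per group. Within a pair, 15.8% to 26.3% of genes differed beyond the 5% chi-square level, so each library was kept. Named genes are the 8 members, members of the lists in the text and the 3 genes most like each member; Zmynd15 was added after its values were seen. The members and lists were chosen with earlier results of these data known. The count over the list of IFN signalling genes is not reported here. RefSeq promoters were at hand for 5 members. Alternatives were pseudocounts of 0.1 and 1 CPM, other filters, centred libraries, plain eBayes, a fit of the compared groups alone, a replicate block and leaving out each library. The test of polyU against vehicle was checked on simulated data. Genes changed there were better expressed with vehicle than Cxcl1, Cxcl3, Cxcl5, Cxcl9 and Cxcl11, so the check does not cover these members.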

Additional observations from a re-analysis of the deposited data

Results flagged for a closer look

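The change with PNPi+dG/rG differed between cells with and without polyU for 5 of the 8 CXC chemokines, by the interaction term in limma. The difference was 5.08 on the log2 scale for Cxcl1, 4.86 for Cxcl2, 6.35 for Cxcl3, 2.49 for Cxcl9 and 1.18 for Cxcl10. Cxcl3 combined the largest of these with a lower mean under PNPi+dG/rG alone (0.792 CPM) than with vehicle (1.15 CPM). The value for Cxcl10 is the only one of the 5 that crossed the threshold when libraries were left out, with adjusted p-values from 0.00504 to 0.117, and its call was also lost with no filter on low values (0.0816) and in the fit of the compared groups alone (0.0628).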

How the results depend on the processing

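Counts of called chemokines and genes stayed within 1.5 times the main count under every alternative, except for PNPi+dG/rG vs vehicle and 1 setting of polyU. With a pseudocount of 1 CPM, polyU called 303 genes in place of 478. For PNPi+dG/rG vs vehicle, where 1 chemokine and 9 genes were called, 0 chemokines were called with pseudocounts of 0.1 or 1 CPM, with plain eBayes or in the fit of the compared groups alone. The genes called were 1 and 0 with those pseudocounts, 16 with no filter, 4 with a mean of at least 1 CPM and 4 in the fit of the compared groups alone. Leaving out a library gave 2 to 29 genes and 0 to 1 chemokines. Some uncalled differences turned sign. Cxcl16 did so after centring, at -0.027 for PNPi+dG/rG vs vehicle and -0.27 for PNPi+dG/rG+polyU vs R848. Without a library, PNPi+dG/rG vs vehicle ranged from -0.0092 to 0.020 for Cxcl16, from -0.41 to 0.32 for Cxcl9 and from -1.11 to 0.51 for Cxcl11, and the interaction of Cxcl5 from -0.83 to 8.32. Against vehicle with a pseudocount of 1 CPM, R848 gave 0.69 for Cxcl9 and 0.38 for Cxcl11, both under 2-fold. With that pseudocount polyU gave 0.71 for Cxcl3 and the combination 0.63 for Cxcl5, also under 2-fold. The replicate numbers did not pair the libraries (correlation of same-numbered deviations from -0.29 to 0.11 over 10 pairs of groups), and with the replicate block the interaction of Cxcl10 kept its 1.18 but lost its call at an adjusted p of 0.0792, while the count of called genes went from 9 to 10 for PNPi+dG/rG. Of single-gene results, 747 kept direction and call, 29 lost the call, 9 gained it and 7 turned sign, and the cause was not tested. Depth limits Cxcl5, Cxcl9 and Cxcl11 most, with 0 to 8 reads per vehicle library.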
